A study of Mus musculus with 12 samples.

Results

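Oxidative phosphorylation is carried out in the inner mitochondrial membrane by 5 protein complexes, and the genes for their nuclear-encoded subunits were followed here across sorted kidney tubules. Members were all genes with a non-control array probe whose name begins with Nduf, Sdha to Sdhd, Uqcr, Cox4 to Cox8 or Atp5. This gave 116 probes for 83 genes, out of 41174 probes on the array. Of the 83 genes, 80 passed the filter on dim probes and were tested among 17071 genes in all. These 80 were 75 structural subunits, namely 35 of complex I, 4 of complex II, 7 of complex III, 14 of complex IV and 15 of complex V, and 5 genes that share a name with a subunit without being one. The 3 genes that did not pass were Cox4i2, Cox8b and Cox8c, all tissue-restricted forms of complex IV subunits, which were well above background on 1, 2 and 0 of 12 arrays. The rule reads gene names and no measured value.

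Complex I takes electrons from NADH and complex II takes them from succinate, and both pass them to ubiquinone. Complex III moves them on to cytochrome c, complex IV passes them to oxygen, and complex V, the ATP synthase, uses the proton gradient that complexes I, III and IV build. Tubule segments that reabsorb much salt by active transport, the distal convoluted tubule among them, are known for dense mitochondria and a high need for ATP.

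RNA came from the kidney tubules of 4 animals. Mice 1 and 3 were female, and mice 2 and 4 were male. From each mouse a COPAS large-particle sorter gave EGFP+ tubules, labelled as distal convoluted tubules by the series, EGFP- tubules, and the total fraction, ALL. All groups share this source, the labels name no treatment, and they give neither strain nor age nor the promoter that drives EGFP. With 1 fraction of 1 mouse on each of the 12 one-colour Agilent arrays, every fraction has n = 4. Levels are log2 processed signals minus the array's own 75th percentile, so that 0 is the upper quartile of an array. Levels are compared within a gene, never between genes.

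All 7 markers fixed for the distal convoluted tubule rose in EGFP+ against EGFP- tubules, and all 9 proximal tubule, 4 principal cell, 5 podocyte, 5 endothelial and 3 erythroid markers fell. Of 5 thick ascending limb markers 4 rose and 1 fell, of 5 intercalated cell markers 1 rose and 1 fell, and of 5 leukocyte markers 4 fell. The log2 of the summed signal of the distal convoluted tubule markers lay between 8.87 and 9.20 in EGFP+ and between 4.71 and 5.26 in EGFP- tubules. For the 5 proximal tubule markers with a value on all arrays it lay between 0.87 and 2.06 in EGFP+ and between 6.34 and 6.76 in EGFP- tubules. The summed levels of these distal convoluted and proximal tubule markers thus did not overlap between EGFP+ and EGFP- arrays. For the 4 thick ascending limb markers with a value on all arrays the sum was lower in EGFP+ (4.79 to 5.20) than in EGFP- tubules (5.34 to 5.59), although 4 of the 5 markers rose. For the 5 intercalated cell markers it lay between 4.25 and 4.74 in EGFP+ and between 4.79 and 5.32 in EGFP- tubules. The part of the cell type markers in the results below was not tested. In such bulk samples fewer cells of a type and less RNA per cell cannot be told apart.

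Spots that the scanner software marked as outliers were left out, and this touched the members unevenly. All member marks were for uneven spots, and all lay on 1 of the 3 slides. On the ALL array of mouse 2, 33 of 116 member spots (28.4%) were lost, against 1.19% of all non-control spots. A further 13 were lost on the EGFP- array of mouse 2, 5 on the EGFP+ array of mouse 3 and 1 on the ALL array of mouse 3. The other 8 arrays lost no member spot, and no member spot was saturated. Hence 43 of the 75 subunits had a value on all 12 arrays, and the fit used the arrays that remained for the others. The plot of spots left out by array shows this concentration.

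**Figure D1:**
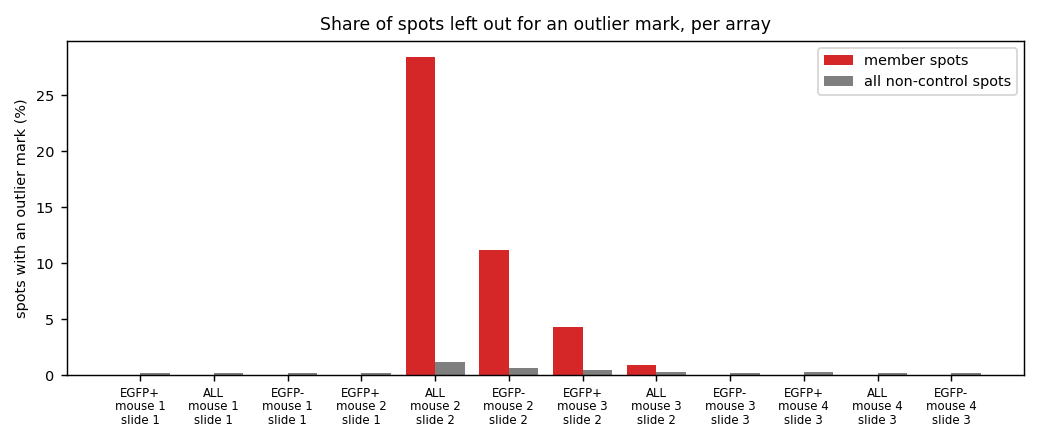
Share of spots (%) left out for an outlier mark on each of the 12 arrays, for the 116 member spots (red) and all non-control spots (grey). The ALL array of mouse 2 lost 28.4% of its member spots and 8 arrays lost none.

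Most subunit genes were higher in EGFP+ than in EGFP- tubules, by modest amounts. Of the 80 tested members 49 rose (61.25%), 1 fell (Cox6a2) and 30 did not pass an adjusted p of 0.05 in limma. Over all genes tested 32.3% rose and 25.9% fell. Among the 75 subunits 48 rose (64%) and 74 had a positive difference. Of all 17071 genes 9518 had a positive difference. The median difference of the subunits was 0.58 on the log2 scale, a 1.5-fold change, against 0.11 over all genes. These values rest on 1 probe per gene. For Ndufb2 that probe gave 0.78 and the other tested probe -0.10. With the mean of each gene's probes the subunit median was 0.59. The quartiles of the subunits were 0.40 and 0.73, and those of all genes -0.61 and 0.60. In 38 of the 80 members (47.5%) every EGFP+ array was above every EGFP- array, as in 30.5% of all genes, and in 1 every one was below, as in 25.3%. The largest differences were those of Atp5k, a membrane subunit of ATP synthase, at 1.22 and Ndufa11, an accessory subunit in the membrane arm of complex I, at 1.16.

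The medians of the 5 complexes ran from 0.51 to 0.65. Complex I had 22 of 35 subunits higher with a median of 0.58, complex II 3 of 4 with 0.53, complex III 5 of 7 with 0.51, complex IV 8 of 14 with 0.61, and complex V 10 of 15 with 0.65. Over all genes 32.3% rose, with a median of 0.11. Differences between complexes were not tested. The differences and errors of 79 members are drawn in the plot of member differences.

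**Figure D2:**
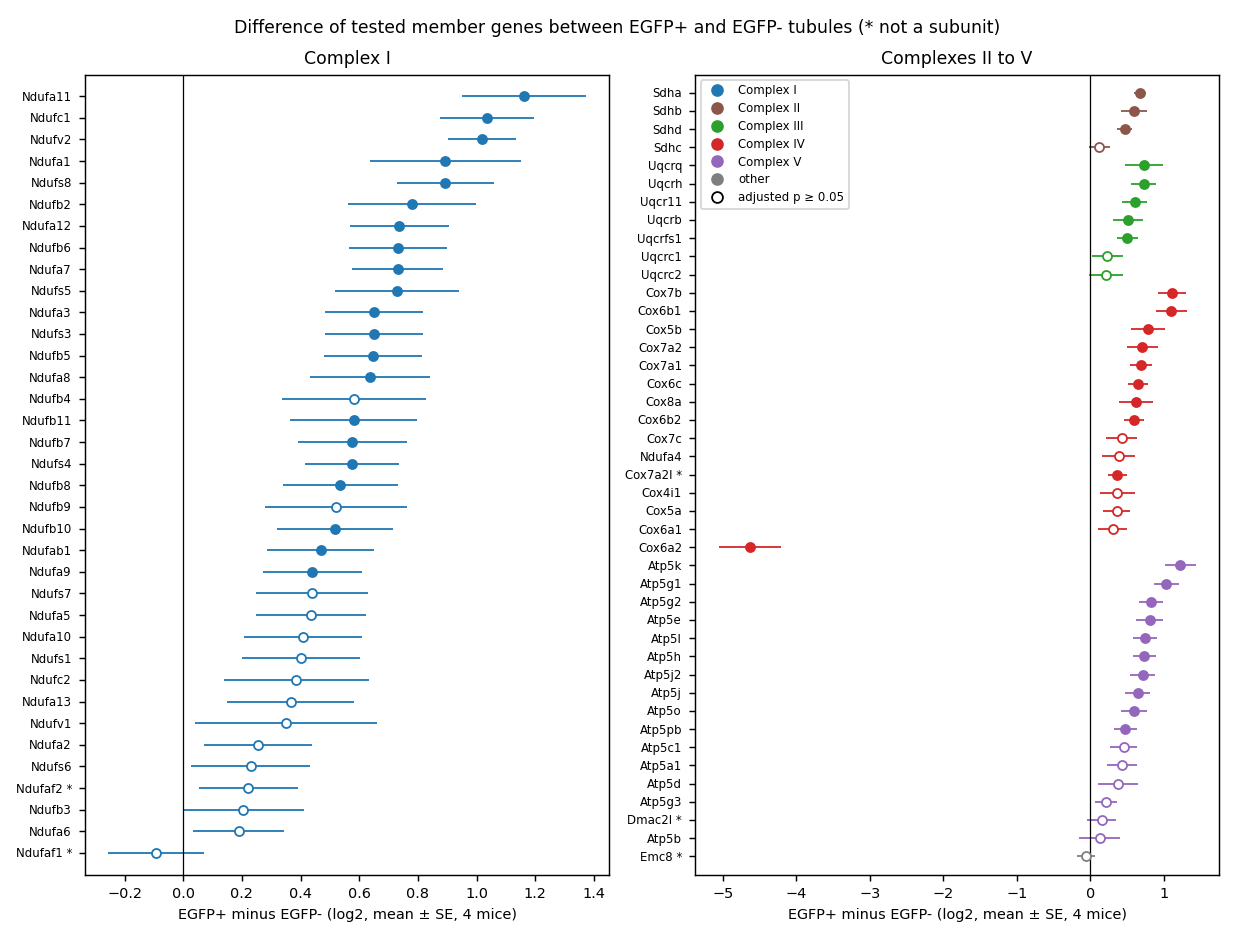
Difference EGFP+ minus EGFP- (log2, horizontal axis) of 79 of the 80 tested members, with its standard error, for complex I (left) and complexes II to V (right, on a wider scale). Filled points passed an adjusted p of 0.05 and open points did not; all but Cox6a2 among the subunits lie right of 0, up to 1.22 for Atp5k.

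Since so many members moved together, the subunits' promoters were searched for words bound by factors known to act on respiratory genes. The words were GCGCATGCG for NRF1, TCAAGGTCA for the estrogen-related receptors (ERR), CCGGAAGTG for GABP (also called NRF2) and AAGATGGCG for YY1, each on both strands in the 250 bases before the gene's start. RefSeq promoters on GRCm38.p6 were matched for 64 subunit genes (69 windows). The NRF1 word was present in 6 windows (8.7%), against 1.45% of 32851 windows of all genes. ERR was in 1 window (1.45% against 0.387%), GABP in 1 (1.45% against 1.44%) and YY1 in 1 (1.45% against 0.606%). The words were chosen with the results known, and a match describes the letters only.

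All 9 subunit promoters with a match are shown, 5′ to 3′ along the gene, because they hold genes from both ends of the range of differences. Capitals mark the match, which is NRF1 in the first 6 sequences, GABP on the reverse strand in Uqcrh, ERR on the reverse strand in Atp5g3 and YY1 in Atp5j. In Ndufa8 and Atp5l the NRF1 word is on the reverse strand only, so the capitals show its reverse complement. In Ndufa11, Cox6a1, Atp5k and Atp5g2 the NRF1 word occurs on both strands in overlap, so the capitals span 1 base more than the word.
Ndufa11, chr17:56717512-56717761, + strand: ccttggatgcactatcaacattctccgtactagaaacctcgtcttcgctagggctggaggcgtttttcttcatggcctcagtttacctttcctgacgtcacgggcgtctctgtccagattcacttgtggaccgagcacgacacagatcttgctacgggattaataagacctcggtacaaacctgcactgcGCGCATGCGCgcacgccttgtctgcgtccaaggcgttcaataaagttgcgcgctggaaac
Ndufa8, chr2:36049339-36049588, - strand: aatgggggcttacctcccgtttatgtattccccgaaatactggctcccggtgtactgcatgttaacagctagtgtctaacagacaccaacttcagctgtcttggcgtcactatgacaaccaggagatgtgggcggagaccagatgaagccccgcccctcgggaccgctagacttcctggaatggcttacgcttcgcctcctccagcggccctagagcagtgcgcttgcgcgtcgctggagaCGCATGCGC
Cox6a1, chr5:115348959-115349208, - strand: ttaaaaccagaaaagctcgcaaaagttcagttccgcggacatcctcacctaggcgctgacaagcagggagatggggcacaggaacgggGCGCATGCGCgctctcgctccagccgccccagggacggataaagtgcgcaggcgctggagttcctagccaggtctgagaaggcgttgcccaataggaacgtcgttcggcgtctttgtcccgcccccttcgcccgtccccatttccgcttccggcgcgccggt
Atp5k, chr5:108434400-108434649, - strand: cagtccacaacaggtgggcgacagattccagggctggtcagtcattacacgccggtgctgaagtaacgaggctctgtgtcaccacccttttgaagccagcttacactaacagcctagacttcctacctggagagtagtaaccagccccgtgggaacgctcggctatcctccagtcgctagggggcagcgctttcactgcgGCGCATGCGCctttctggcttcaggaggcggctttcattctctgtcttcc
Atp5g2, chr15:102671048-102671297, - strand: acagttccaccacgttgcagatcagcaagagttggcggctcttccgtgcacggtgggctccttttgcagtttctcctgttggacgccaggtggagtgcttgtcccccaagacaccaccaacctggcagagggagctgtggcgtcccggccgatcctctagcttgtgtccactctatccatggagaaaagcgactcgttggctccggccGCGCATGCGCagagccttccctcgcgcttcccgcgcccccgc
Atp5l, chr9:44920743-44920992, - strand: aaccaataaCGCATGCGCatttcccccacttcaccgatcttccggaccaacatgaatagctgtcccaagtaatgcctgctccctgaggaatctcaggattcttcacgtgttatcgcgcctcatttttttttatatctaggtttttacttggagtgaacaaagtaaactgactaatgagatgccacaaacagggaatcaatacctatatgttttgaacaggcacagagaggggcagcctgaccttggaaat
Uqcrh, chr4:116075071-116075320, - strand: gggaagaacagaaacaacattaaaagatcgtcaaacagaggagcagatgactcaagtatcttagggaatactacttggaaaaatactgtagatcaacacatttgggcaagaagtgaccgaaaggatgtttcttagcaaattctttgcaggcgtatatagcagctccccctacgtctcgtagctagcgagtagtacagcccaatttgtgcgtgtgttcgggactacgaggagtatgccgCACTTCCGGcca
Atp5g3, chr2:73911327-73911576, - strand: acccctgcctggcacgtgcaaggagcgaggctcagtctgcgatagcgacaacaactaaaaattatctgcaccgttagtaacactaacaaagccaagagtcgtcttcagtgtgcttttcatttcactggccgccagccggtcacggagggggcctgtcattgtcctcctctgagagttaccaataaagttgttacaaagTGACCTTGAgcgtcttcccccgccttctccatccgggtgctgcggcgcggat
Atp5j, chr16:84834977-84835226, - strand: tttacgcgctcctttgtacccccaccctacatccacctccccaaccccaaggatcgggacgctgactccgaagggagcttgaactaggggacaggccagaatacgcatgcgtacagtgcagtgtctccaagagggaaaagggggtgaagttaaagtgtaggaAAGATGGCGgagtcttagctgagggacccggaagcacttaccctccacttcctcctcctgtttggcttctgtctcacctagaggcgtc

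Genes with the NRF1 word differed in their response. Atp5k, Ndufa11, Atp5g2, Atp5l and Ndufa8 rose by 1.22, 1.16, 0.82, 0.75 and 0.64 on the log2 scale, and the difference of Cox6a1 was 0.30 ± 0.19 (SE) and did not pass. Atp5g3, with the ERR word, had a difference of 0.21 ± 0.15 that did not pass. Uqcrh, with the GABP word, rose by 0.73, and Atp5j, with the YY1 word, rose by 0.65. Motif and response were not tested against each other.

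In complex I, the NADH dehydrogenase, the members range over a peripheral arm that carries the flavin and iron-sulfur clusters and a membrane arm that pumps protons. Ndufa11 (probe at chr17:56402942-56403001 on the mm8 assembly) had levels of 1.32, 1.52, 2.11 and 1.43 in the EGFP+ tubules of mice 1 to 4. Its levels were 0.33, 0.87, 0.63 and 1.25 in ALL and 0.40, 0.49, 0.28 and 0.57 in EGFP- tubules. All EGFP+ arrays lay above all others, and the difference to EGFP- was 1.16 ± 0.21 (SE; adjusted p = 0.00052). Its other tested probe gave 1.20.

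Ndufc1, an accessory subunit of the membrane arm (chr3:51493415-51493474), had levels of 5.50, 5.80, 6.12 and 5.92 in EGFP+ and 4.68, 4.71, 4.88 and 4.93 in EGFP- tubules. The groups did not overlap, with a difference of 1.03 ± 0.16 (adjusted p = 0.00016), and its 3 probes gave differences from 0.48 to 1.11. At the lower end stood Ndufa6, a small subunit of the LYR family, and Ndufb3, of the distal membrane arm. Ndufa6 had levels of 4.24, 4.33, 4.50 and 4.27 in EGFP+ and 3.90, 4.21, 4.11 and 4.37 in EGFP- tubules, a difference of 0.19 ± 0.15 (adjusted p = 0.32). Ndufb3 differed by 0.21 ± 0.21 (adjusted p = 0.42). In both genes the EGFP- array of mouse 4 was the highest of its fraction and overlapped the EGFP+ arrays.

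Among the core subunits of complex I, in the module that oxidises NADH, Ndufv2, an iron-sulfur subunit, rose by 1.02 ± 0.12 (adjusted p = 1.3e-05), from levels of 3.60 to 3.74 in EGFP- to 4.51 to 4.83 in EGFP+ tubules. Its partners Ndufv1, which binds the flavin, and Ndufs1, the largest subunit, had differences of 0.35 ± 0.31 and 0.40 ± 0.20 that did not pass. Ndufv1 lost its ALL and EGFP- spots of mouse 2, so its value rests on 4 EGFP+ and 3 EGFP- arrays. Ndufs3 of the ubiquinone-binding module rose by 0.65, Ndufs8 rose by 0.89, and Ndufs7 had a difference of 0.44 (adjusted p = 0.069). These genes were singled out after their values were seen.

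Complex II, succinate dehydrogenase, belongs to the citrate cycle as well and is the only complex with no mitochondrially encoded subunit. Sdha, the flavoprotein that oxidises succinate (chr13:74788700-74788759), had the smallest standard error of the 4. Its levels were 5.08, 4.98, 5.12 and 5.13 in EGFP+, 4.43, 4.45, 4.37 and 4.39 in ALL and 4.46, 4.37, 4.33 and 4.44 in EGFP- tubules. The gap between EGFP+ and EGFP- was 0.68 ± 0.08 (adjusted p = 2.6e-05), and all 3 probes of the gene were positive, from 0.54 to 0.68. With the normexp background correction it was 0.39 (adjusted p = 0.056).

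Sdhb, the iron-sulfur subunit, rose by 0.60 ± 0.18 (adjusted p = 0.012), and Sdhd, a membrane anchor, by 0.47 ± 0.10 (adjusted p = 0.0019), each with no overlap between EGFP+ and EGFP- arrays. The call of Sdhb was lost with normexp and without mouse 3, and that of Sdhd with quantile normalization and normexp. Sdhc, the other membrane anchor (chr1:172966201-172966260), had levels of 4.11, 4.22, 4.40 and 4.33 in EGFP+ and 3.93, 4.07, 4.15 and 4.42 in EGFP- tubules. Its difference of 0.12 ± 0.14 did not pass (adjusted p = 0.48), and mouse 4 was lower in EGFP+.

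In complex III, the cytochrome bc1 complex, the core proteins Uqcrc1 and Uqcrc2, large matrix subunits without a redox centre, had differences of 0.23 ± 0.21 and 0.21 ± 0.23, and neither passed. Both passed with quantile normalization (0.31 and 0.36), and Uqcrc1 also without mouse 4 (0.42) and without the ALL and EGFP- arrays of mouse 4 (0.43). The other 5 subunits among the members all passed, with differences from 0.51 to 0.73, where 32.3% of all genes rose. This grouping was made after the values were seen, and the difference between the groups was not tested. Uqcrh, the hinge protein beside cytochrome c1 (chr4:115564971-115565030), had levels of 7.38, 7.60, 7.88 and 7.89 in EGFP+ and 6.82, 6.94, 6.92 and 7.17 in EGFP- tubules, and rose by 0.73 ± 0.17 (adjusted p = 0.0034). Uqcrq, a small subunit, rose by 0.73 ± 0.25 (adjusted p = 0.030), with EGFP- levels from 5.93 to 6.68 and EGFP+ levels from 6.66 to 7.14 that overlapped slightly. This call was lost with normexp, with no filter and without mouse 2 or 3 (adjusted p up to 0.17). Uqcrfs1, the Rieske iron-sulfur protein, rose by 0.51 ± 0.15 (adjusted p = 0.012) on 4 EGFP+ and 3 EGFP- arrays.

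In complex IV, cytochrome c oxidase, the nuclear-encoded subunits surround a catalytic core that the mitochondrial genome encodes, and several come in tissue-specific isoforms. Cox7b (chrX:102224534-102224593) had levels of 5.48, 5.76, 6.14 and 5.85 in EGFP+, 4.67, 4.64, 4.92 and 5.31 in ALL, and 4.54, 4.62, 4.59 and 5.03 in EGFP- tubules. The EGFP+ arrays lay above all others, with a difference to EGFP- of 1.11 ± 0.19 (adjusted p = 0.00030). Cox6b1, the ubiquitous form of subunit VIb (chr7:30333316-30334812), had levels of 2.10, 2.27, 2.81 and 2.55 in EGFP+ and 1.08, 1.35, 1.29 and 1.62 in EGFP- tubules. It rose by 1.10 ± 0.21 (adjusted p = 0.00080).

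Cox6a2, the heart and muscle form of subunit VIa, was the one member that fell (chr7:127996794-127996853). Its levels were -4.96, -4.59, -5.56 and -5.15 in the EGFP+ tubules of mice 1 to 4. They were -1.00, -0.50, -0.96 and 0.61 in ALL and -0.91, -0.37, -1.10 and 0.65 in EGFP- tubules. All EGFP+ arrays lay far below the other 8, and the difference to EGFP- was -4.63 ± 0.43 (adjusted p = 2.1e-06). In EGFP+ tubules 2 of 4 arrays had this probe well above background, and in the other fractions all 8 did, and with the normexp background correction, which adds an offset to dim spots, the difference was -2.47, so the size of the fall is not settled. It fell together with the markers of the proximal tubule, podocytes, endothelium and blood cells, whose part in it was not tested. Its liver-type counterpart Cox6a1 had levels of 7.75, 7.89, 8.12 and 8.15 in EGFP+ and 7.42, 7.62, 7.58 and 8.08 in EGFP- tubules, a difference of 0.30 ± 0.19 (adjusted p = 0.20) with overlap through mouse 4. With the mouse as a block Cox6a1 passed (adjusted p = 0.035), as it did with the slide as a block and without the ALL and EGFP- arrays of mouse 4.

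The other tested tissue-restricted isoforms rose. Cox7a1, the heart and muscle form of subunit VIIa (chr7:29894078-29894689), had levels of 2.88, 3.50, 3.44 and 3.36 in EGFP+ and 2.75, 2.41, 2.81 and 2.47 in EGFP- tubules, and rose by 0.69 ± 0.15 (adjusted p = 0.0021). Its liver-type counterpart Cox7a2 rose by 0.71 ± 0.20 (adjusted p = 0.011), from 5.17 to 5.81 in EGFP- to 5.70 to 6.31 in EGFP+ tubules, where mouse 1 in EGFP+ and mouse 4 in EGFP- overlapped. The call of Cox7a2 was lost without mouse 2 and without mouse 3 (adjusted p up to 0.078). Cox6b2, named for its testis expression (chr7:4354973-4355032), had levels of -2.15, -1.86, -1.80 and -1.55 in EGFP+ and -2.55, -2.36, -2.22 and -2.61 in EGFP- tubules. It was well above background on all 12 arrays and rose by 0.60 ± 0.13 (adjusted p = 0.0024).

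**Figure D3:**
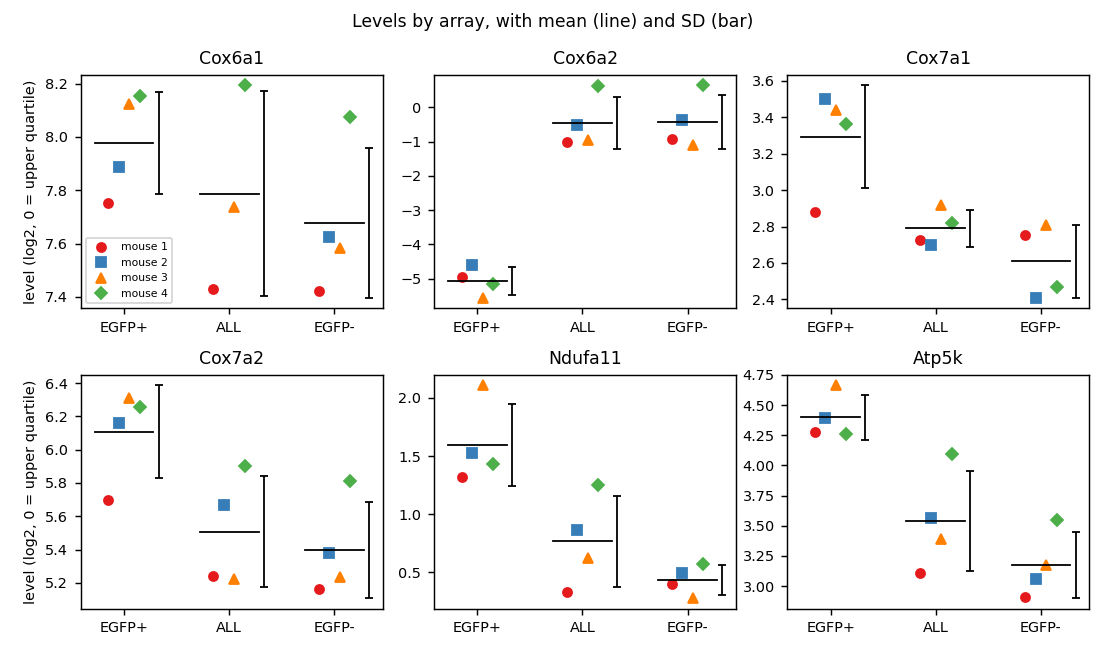
Levels (log2, 0 is the array's upper quartile) of 6 members by fraction, 1 point per mouse, with the mean as a line and the SD as a bar at its right; each panel has its own vertical scale. Cox6a2 lies between -5.56 and -4.59 in EGFP+ and between -1.10 and 0.65 in the other fractions, while Cox7a1, Ndufa11 and Atp5k lie higher in EGFP+ than in EGFP- tubules in all 4 mice.

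The remaining subunits of these isoform sets were the ubiquitous forms. Cox8a rose by 0.62 ± 0.23 (adjusted p = 0.044) on 3 EGFP+ and 4 EGFP- arrays, and it did not pass with outlier spots kept, with median centring, with normexp, with no filter, or without mouse 1, 2 or 3. Cox4i1 (0.36 ± 0.24) and Ndufa4 (0.39 ± 0.22), which carries a complex I name but belongs to complex IV, did not pass. Cox4i1 had 3 EGFP+ and 3 EGFP- arrays, and it passed with quantile normalization and without the ALL and EGFP- arrays of mouse 4. Ndufa4 passed with the mouse as a block (adjusted p = 0.035), and in 5 of 15 alternatives in all.

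In complex V, the ATP synthase, a membrane ring and central stalk turn against a catalytic F1 head held by a peripheral stalk. Atp5k, subunit e of the membrane part (chr5:108674089-108674344), had levels of 4.28, 4.39, 4.66 and 4.26 in EGFP+, 3.10, 3.56, 3.39 and 4.09 in ALL, and 2.91, 3.05, 3.18 and 3.55 in EGFP- tubules. Its EGFP+ arrays were the highest in every mouse, and the difference to EGFP- was 1.22 ± 0.21 (adjusted p = 0.00032). The membrane subunits e, f and g all rose (3 of 3, from 0.71 to 1.22), and so did the peripheral stalk (4 of 4, from 0.48 to 0.74). Of the F1 head and central stalk 1 of 5 passed, the small epsilon subunit Atp5e at 0.81 ± 0.18 (adjusted p = 0.0035). Over all genes 32.3% rose, and these groups too were formed after the values were seen.

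Atp5b, the catalytic beta subunit (chr10:127493148-127493207), had levels of 7.40, 7.81, 7.91 and 7.98 in EGFP+, 7.25, 7.66 and 8.34 in ALL and 7.35, 7.47 and 8.13 in EGFP- tubules, where mouse 2 was lost in the last 2 fractions. The difference was 0.12 ± 0.28 (adjusted p = 0.73), and its sign turned to -0.042 with quantile normalization, to -0.020 with normexp and to -0.011 without mouse 3. Another probe of Atp5b gave 0.65, so the gene's 3 probes did not agree in size, and with the mean of its probes it passed at 0.46 (adjusted p = 0.010). The alpha subunit Atp5a1, its partner in the head, differed by 0.43 ± 0.20 (adjusted p = 0.091).

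Subunit c of the rotor ring has 3 genes that encode the same mature protein and differ in their import sequence. Atp5g1 (chr11:95889700-95889759) rose by 1.03 ± 0.17 (adjusted p = 0.00029), from levels of 4.74, 4.77, 4.88 and 5.18 in EGFP- to 5.81, 5.81, 6.17 and 5.92 in EGFP+ tubules. Atp5g2 rose by 0.82 ± 0.16 (adjusted p = 0.00094), with no overlap. Atp5g3 had levels of 7.35, 7.59, 7.62 and 7.61 in EGFP+ and 7.30, 7.34, 7.06 and 7.63 in EGFP- tubules, a difference of 0.21 ± 0.15 (adjusted p = 0.24) that became -0.016 with quantile normalization. The 3 genes thus gave 2 calls and 1 value that did not pass, and the difference between them was not tested.

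There were 5 members that share a subunit's name without being one, and they were not tested against the subunits. Of these 1 rose (20%, against 32.3% of all genes), and the median of the 5 was 0.15. It was Cox7a2l, a factor of respiratory supercomplex assembly, which rose by 0.37 ± 0.13 (adjusted p = 0.026). The call was lost with normexp, with no filter and without mouse 2 or 3. Ndufaf2, a complex I assembly factor, differed by 0.22 ± 0.17, Dmac2l, once named as ATP synthase subunit s, by 0.15 ± 0.20 (0.54 from its other probe) and Ndufaf1, another assembly factor, by -0.09 ± 0.16. Emc8, a subunit of the ER membrane protein complex that is listed under its old name Cox4nb, gave -0.06 ± 0.13, with 0.35 from its other probe. None of these 4 passed.

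The shift was seen in all mice, but not to the same degree. EGFP+ exceeded EGFP- in 74 of 75 subunits in mouse 1, in 62 of 63 in mouse 2, in 68 of 70 in mouse 3 and in 61 of 75 in mouse 4. The medians over subunits were 0.53, 0.61, 0.85 and 0.31 in mice 1 to 4, with an SD of 0.22, against 0.16, 0.10, 0.16 and 0.0045 over all genes. Of the 75 subunits 60 were higher in every mouse in which both arrays had a value. Within slides the subunit median was 0.63 on slide 1, 0.85 on slide 2 and 0.49 on slide 3, but the slides mix mice. Slide 1 held EGFP+ of mice 1 and 2 and EGFP- of mouse 1. Slide 2 held EGFP+ of mouse 3 and EGFP- of mouse 2, so its value compares different animals. Slide 3 held EGFP+ of mouse 4 and EGFP- of mice 3 and 4. With the slide as a block 60 members rose (75%, against 33.3% of all genes).

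Mouse 4 differed in its EGFP- and ALL tubules rather than in EGFP+. Over the 43 subunits with a value on all arrays, the median deviation from each gene's mean was 0.15, 0.37, 0.57 and 0.41 in the EGFP+ tubules of mice 1 to 4. It was -0.44, -0.08, -0.17 and 0.27 in ALL and -0.43, -0.29, -0.31 and 0.05 in EGFP- tubules. Those ALL and EGFP- arrays of mouse 4 were also the dimmest of the series, with 75th percentiles of 922 and 1007 against 1170 to 2270 on the other arrays, and the part of brightness was not tested. Without these 2 arrays 67 members rose (83.75%, against 33.6% of all genes), and without mouse 4 altogether 63 did (78.75%, against 31.2%).

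**Figure D4:**
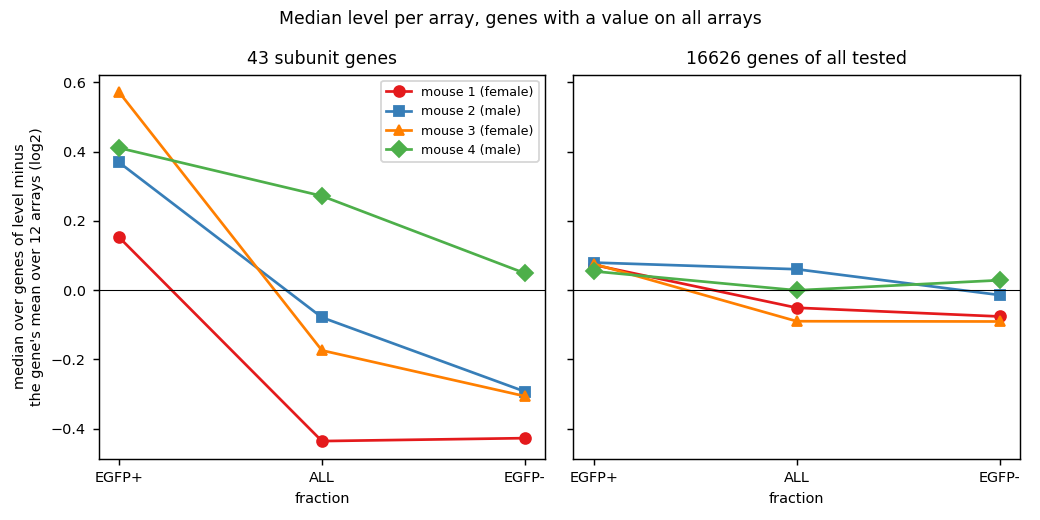
Median over genes of the level minus the gene's mean over the 12 arrays (log2), by fraction, 1 line per mouse, for the 43 subunits (left) and the 16626 genes (right) with a value on all arrays. The subunit medians fall from EGFP+ (0.15 to 0.57) to EGFP- (-0.43 to 0.05) in each mouse, and mouse 4 lies highest in ALL and EGFP-.

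The count of members called depended on which mice entered. Without mouse 3 it was 25 (31.25%, against 27.0% of all genes), and without mouse 2 it was 30 (37.5%, against 27.0%). The median difference of the subunits without mouse 3 was still 0.50. With the normexp background correction 29 members rose (36.25%, against 28.3% of all genes). The higher share of called members than of called genes was therefore slight in these 3 settings, as the plot of shares by processing shows.

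**Figure D5:**
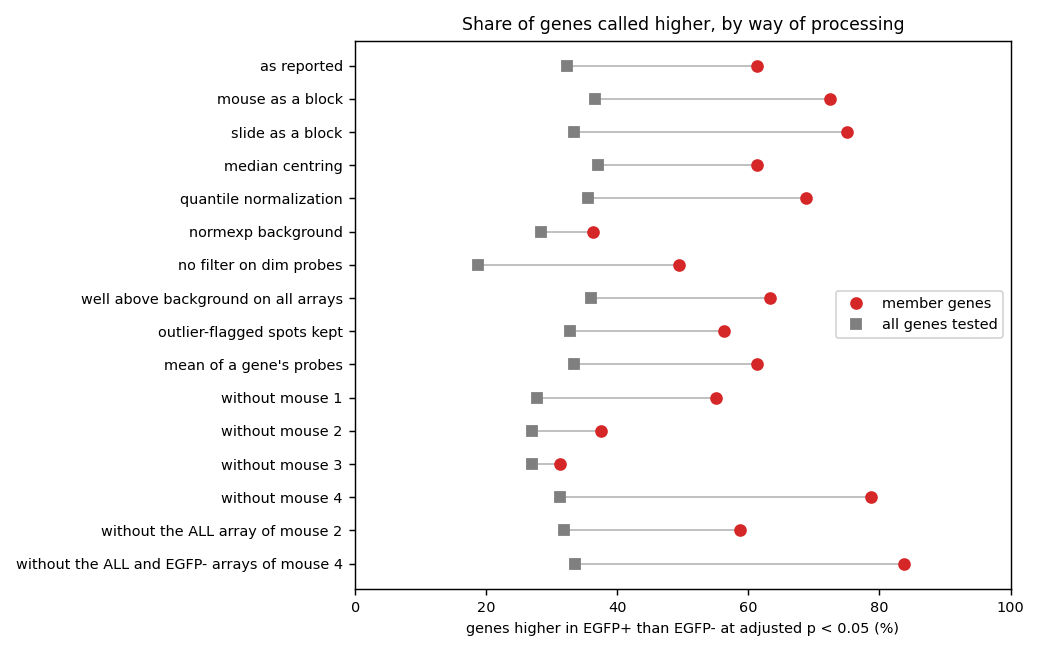
Share (%) of member genes (red) and of all genes tested (grey) that were higher in EGFP+ than EGFP- tubules at an adjusted p under 0.05, for the reported processing and each alternative. The member share lies above that of all genes in each, from 31.25% without mouse 3 to 83.75% without the ALL and EGFP- arrays of mouse 4.

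Against the total fraction the members were again higher in EGFP+ tubules, by less. Of 80 members 35 rose and 1 fell, where 30.3% of all genes rose and 24.9% fell. In 22 members all EGFP+ arrays lay above all ALL arrays (27.5%, against 28.6% of all genes), and in 1, Cox6a2, all lay below (23.8% of all genes). The median over the subunits was 0.45, against 0.09 over all genes. Of the subunits 74 of 75 were positive, and of all genes 9413 of 17071. Both comparisons use the same EGFP+ arrays. Complex V had 10 of 15 subunits higher, complex I 14 of 35, complex II 3 of 4, complex III 2 of 7 and complex IV 5 of 14. Cox7b rose by 0.92 ± 0.19 (adjusted p = 0.0013), Ndufv2 by 0.89 ± 0.12 (adjusted p = 4.7e-05), Atp5k by 0.86 ± 0.21 (adjusted p = 0.0040) and Sdha by 0.67 ± 0.08 (adjusted p = 3.5e-05). Cox6a2 fell by 4.60 ± 0.43 (adjusted p = 2.8e-06), a size that rests on the same EGFP+ arrays, of which 2 of 4 had the probe well above background.

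This second comparison leaned more on single mice and on the lost spots. In mouse 4 EGFP+ exceeded ALL in 48 of 75 subunits with a median of 0.10, and in mouse 1 in 74 of 75 with a median of 0.57. In mouse 2 only 46 subunits had both values. The count of members higher was 22 without mouse 1 (27.5%, against 26.1% of all genes), 20 without mouse 2 (25%, against 25.5%) and 8 without mouse 3 (10%, against 24.1%). In these 3 settings the share of members was near or below that of all genes. It was above it without mouse 4, with 55 members (68.75%, against 28.4%), and without the ALL and EGFP- arrays of mouse 4, with 62 (77.5%, against 30.9%).

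Between ALL and EGFP- tubules no member passed in limma, in either direction, and none had an unadjusted p under 0.05. Over all genes 1.39% were higher and 0.00586% lower in ALL. The subunit median was 0.13, against 0.0083 over all genes. Of the subunit values 74 of 75 were positive, and of all genes 8970 of 17071. The subunit medians of mice 1 to 4 were -0.03, 0.22, 0.13 and 0.20. Over all mice the subunit median was 0.024 with normexp (0.049 over all genes), 0.077 with median centring and 0.060 with outlier spots kept. It lay between 0.084 and 0.20 when 1 mouse was left out. The highest values were 0.36 for Atp5k and 0.33 for Ndufa11. Cox6b2 was the only member whose ALL arrays (-2.20 to -2.09) all lay above its EGFP- arrays (-2.61 to -2.22), as in 2.82% of all genes.

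Other genes that serve the respiratory chain were taken from 8 lists with 182 tested genes. Of these 59 rose (32.4%) and 17 fell (9.34%) in EGFP+ against EGFP- tubules, with a median of 0.17. Over all genes 32.3% rose and 25.9% fell, so the share that rose was that of the background, and the counts of single lists below are to be read against these shares. In the citrate cycle and its entry enzymes 10 of 19 rose and 1 fell, with a median of 0.56. Idh2, the mitochondrial NADP-dependent isocitrate dehydrogenase, had levels of 4.40, 4.57, 4.74 and 4.92 in EGFP+ and 2.84, 2.86, 3.12 and 3.17 in EGFP- tubules and rose by 1.66 ± 0.14 (adjusted p = 1.1e-06). Dlat, a subunit of pyruvate dehydrogenase, rose by 1.09 ± 0.11 (adjusted p = 3.2e-06). Pcx, pyruvate carboxylase, which also serves gluconeogenesis in the proximal tubule, fell by 3.65 ± 0.33 (adjusted p = 1.5e-06).

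Among 9 tested nucleotide and phosphate carriers, porins and related genes 5 rose and 1 fell, with a median of 0.57. Ucp2, an uncoupling protein family member, rose by 2.68 ± 0.41 (adjusted p = 0.00013). Ckmt1, the mitochondrial creatine kinase, had levels of 4.84, 4.84, 4.91 and 5.10 in EGFP+ and 2.46, 2.59, 2.32 and 2.23 in EGFP- tubules and rose by 2.52 ± 0.13 (adjusted p = 1.8e-08). Atpif1, the inhibitor of ATP synthase, fell by 0.67 ± 0.21 (adjusted p = 0.018) on levels of 5.57 to 5.91 in EGFP+ and 6.10 to 6.99 in EGFP- tubules. That fall did not pass with median centring or without mouse 3.

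The list of cytochrome c and genes of electron transfer was mixed, with 2 of 8 higher, 2 lower and a median of -0.11. Cyc1, the cytochrome c1 subunit of complex III, which the name rule does not cover, rose by 0.64 ± 0.21 (adjusted p = 0.023). This call was lost with normexp and without mouse 2 or 3. Cycs, somatic cytochrome c, differed by 0.72 ± 0.40 (adjusted p = 0.16) on 3 arrays of each fraction and passed with quantile normalization (0.85), without mouse 4 (1.04) and without the ALL and EGFP- arrays of mouse 4 (1.11). Sqor, the sulfide oxidoreductase that feeds ubiquinone, fell by 1.26 ± 0.10 (adjusted p = 8.1e-07). In ubiquinone synthesis 3 of 10 rose and 2 fell. Coq7 and Coq6, hydroxylases of the ring, rose by 1.38 ± 0.13 and 0.79 ± 0.10, and Pdss1, which helps to make the side chain, fell by 1.37 ± 0.37.

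Assembly factors outside the member rule gave 12 of 33 higher and 3 lower, with a median of 0.15. Ttc19, a complex III factor, rose by 1.67 ± 0.10 (adjusted p = 7.9e-08). Cox10, which makes haem o, the precursor of haem a of complex IV, rose by 1.40 ± 0.15. Acad9, a complex I factor, fell by 1.08 ± 0.26 (adjusted p = 0.0039). The mitochondrial ribosome had 22 of 78 higher and 5 lower, with a median of 0.15. Mrps6 rose by 2.55 ± 0.10 (adjusted p = 2.8e-09), Mrps23 by 1.18 ± 0.09, and Mrpl50 fell by 0.86 ± 0.13. Of 23 genes of mitochondrial import 3 rose and 3 fell, among them Tomm40l (0.83 ± 0.12) and Tomm40 (0.64 ± 0.11), pore proteins of the outer membrane, and the receptor Tomm20 (-0.99 ± 0.13).

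Mitochondrially encoded subunits were represented by 2 probes. CYTB, cytochrome b of complex III, had levels of 6.71, 6.75, 6.82 and 6.56 in EGFP+ and 6.28, 6.42, 6.11 and 6.57 in EGFP- tubules and rose by 0.36 ± 0.14 (adjusted p = 0.042). ND4L of complex I rose by 0.35 ± 0.13 (adjusted p = 0.041) on 4 EGFP+ and 3 EGFP- arrays. With the mouse as a block ND4L differed by 0.30 and did not pass (adjusted p = 0.074). Each call was lost in 7 of 15 alternatives, among them the slide as a block, normexp, no filter and the settings without mouse 1, 2 or 3. Against ALL, 48 of the 182 genes rose (26.37%, against 30.3% of all genes) and 20 fell (10.99%, against 24.9%). Between ALL and EGFP- tubules 2 rose (1.099%, against 1.39% of all genes). They were Ckmt1 (0.62 ± 0.13) and Mrps6 (0.52 ± 0.10), named after their values were seen. In both comparisons the share that rose was below that of all genes, a difference that was not tested.

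Between the sexes no member passed, when the fractions of each animal were averaged and 2 male mice were compared with 2 female mice. In limma 0 of 80 members had an adjusted p under 0.05, and the lowest adjusted p was 0.17. At an adjusted p under 0.05, 0.972% of all genes were higher and 0.293% lower in males. An unadjusted p under 0.05 was found in 6 of the 80 members and in 3524 of all 17071 genes. The member values were positive (higher in males) in 78 of 80, and those of all genes in 9315 of 17071. The member median was 0.23, against 0.04 over all genes. The subunit medians of mice 1 to 4 were -0.25, -0.01, 0.01 and 0.26, so that male mouse 2 and female mouse 3 lay together and the rest came from female mouse 1 and male mouse 4. Cox6a2 had means of -1.56 in males and -2.41 in females, a difference of 0.86 ± 0.22 (adjusted p = 0.17). Dmac2l differed by 0.43 ± 0.11 and Uqcrc2 by 0.44 ± 0.12 in the same direction, neither passing. A test of whether sex altered the gap between EGFP+ and EGFP- gave 0 calls and 0 unadjusted p under 0.05 among the members, and 0 calls among all 17070 genes it could be fitted for, of which 2057 had an unadjusted p under 0.05.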

How the data were processed

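Levels of oxidative phosphorylation genes were measured on 12 Agilent one-colour arrays of design 014868, read with Feature Extraction 9.5.3.1 per the file headers. The deposited processed signal is a linear intensity from which Feature Extraction had subtracted background. The mean and local background signals, also deposited intensities, served the normexp alternative (offset 50). Per the labels, RNA was amplified and labelled with Cy3. The value table beside the scanner files was not used, because its columns do not match the fractions they are headed with.

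Each array's log2 processed signal was reduced by its 75th percentile over the non-control probes, after outlier spots were left out. Of 41174 probes, those well above background on at least 4 arrays were tested, and the tested probe with the highest mean represented its gene (17071 genes). Brightness varied between arrays, with 75th percentiles from 922 to 2270, and the number of arrays limits the precision. Probe names were updated through RefSeq (GRCm38.p6), so Uqcr, Atp5f1, Atp5s, Cox4nb and Ndufa12l appear as Uqcr11, Atp5pb, Dmac2l, Emc8 and Ndufaf2. Probe coordinates are on mm8, as in the files, and probes were not placed in exons or UTRs.

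Fits used the lmFit and eBayes functions of limma (version 3.58.1; R version 4.3.3) over all 12 arrays with 1 coefficient per fraction, and p-values were adjusted by Benjamini-Hochberg over all genes, with a threshold of 0.05. Errors are SE for differences. P-values of the fractions rest on the spread between arrays within a fraction, pooled over the 3 fractions. That spread holds differences between mice, slides and arrays, and the fit treats the 12 arrays as independent. A trial of the fit on simulated data drew every array independently, so it cannot show how the fit behaves when same-mouse arrays deviate together. Mouse numbers mark the animal that gave all 3 fractions, and same-mouse arrays deviated together (r from 0.23 to 0.82), so the mouse as a block was an alternative. Others were the slide as a block, median centring, quantile normalization, normexp, other filters, spots kept and mice left out. Leaving out single arrays of mice 2 and 4 was added after seeing the data.

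Members and lists were chosen with earlier results of these data known. Named genes are the 2 largest and 2 smallest differences in each complex, isoform sets, members that fell, 3 members that are no subunit, 3 with the lowest p for sex, and in each other list the 2 largest and the smallest. Genes outside this rule are given as illustration or marked where they occur. Of the tested members 1 is counted but not reported here by itself. Motif searches and plots used Python 3.11.15 and matplotlib 3.10.9.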

Additional observations from a re-analysis of the deposited data

Results flagged for a closer look

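In 8 of 137 groups of 4 arrays examined for the named genes, 1 array stood apart from the other 3 by Dixon's test, which chance alone gives in about 1 of 20 groups. Mouse 4 was the mouse apart in 5 of them. In EGFP- tubules it was the highest for Cox7b (5.03, the others 4.54 to 4.62), Sdhd (5.58, the others 5.49 to 5.50) and Ttc19 (-0.68, the others -0.93 to -0.90). In EGFP+ tubules it was the lowest for Tomm20 (3.07, the others 3.28 to 3.32) and Ttc19 (0.58, the others 0.86 to 0.91). Mouse 1 was the lowest in EGFP+ tubules for Atp5g3 (7.35, the others 7.59 to 7.62) and Ndufa4 (6.47, the others 6.86 to 6.93). Mouse 3 was the highest in EGFP+ tubules for Cyc1 (6.46, the others 5.88 to 5.98).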

How the results depend on the processing

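The mouse as a block pairs the fractions of each animal. With it 58 members rose in EGFP+ against EGFP- (72.5%, against 36.5% of all genes) and 1 fell (28.8% of all genes). Against ALL 49 rose (61.25%, against 34.8% of all genes). The block moved no member count by over 1.5 times. Among the named genes it changed the calls of Cox6a1, Ndufa4 and ND4L and no other. Counts of members higher in EGFP+ than EGFP- ranged from 25 to 63 when 1 mouse was left out (31.25% to 78.75%, against 27.0% to 31.2% of all genes). Against ALL they ranged from 8 to 55 (10% to 68.75%, against 24.1% to 28.4%). Normexp gave 29 (36.25%, against 28.3%) and, against ALL, 22 (27.5%, against 19.9%). No filter gave 23 against ALL (27.7%, against 17.3%). Leaving out the ALL and EGFP- arrays of mouse 4 gave 62 against ALL (77.5%, against 30.9%). With probes required above background on all arrays Cox6a2 was not tested, so 0 members fell in either comparison. The difference of Atp5b turned to -0.042 with quantile normalization and -0.020 with normexp, and ran from -0.011 to 0.30 when 1 mouse was left out. That of Atp5g3 turned to -0.016 with quantile normalization. The cause was not tested.

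Median centring moved the median of all genes from 0.11 to 0.26 and that of the subunits from 0.58 to 0.74, and normexp moved that of all genes to 0.26 and that of the subunits to 0.44. For the other genes of the pathway, the counts lower were 9 (EGFP+ against EGFP-) and 7 (against ALL) with median centring, and 13 against ALL both with no filter and without the ALL array of mouse 2. Their count higher was 38 with normexp. Leaving out 1 mouse gave 37 to 72 higher and 12 to 16 lower against EGFP-, 31 to 62 higher and 10 to 18 lower against ALL, and 0 to 1 higher between ALL and EGFP-. The 2 genes higher in ALL than EGFP- became 1 with the slide as a block, quantile normalization or without the ALL array of mouse 2, and 0 with median centring, normexp or no filter. For EGFP+ against EGFP- the subunit median stayed between 0.44 and 0.74 in all alternatives. Against ALL it ran from 0.38 without mouse 3 to 0.64 with median centring. Between ALL and EGFP- 0 members passed in any alternative.

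Precision is limited by 4 mice and by spots lost on slide 2, and dim probes such as Cox6a2 in EGFP+ tubules have levels near background.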
